A study of Mus musculus with 6 samples.

Results

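The poly(A) signal hexamer AATAAA was present exactly once, as written, in 2800 of the 42006 probes on the array, or 6.67%. The 60-base sequences deposited with the scanner data were searched on the strand as written, and the hexamer's first base gave 3 classes: 339 probes with a start at bases 1-18, 674 at bases 19-37 and 1787 at bases 38-55. A further 111 probes held it more than once and were not members, and 39095 held none. Members were compared only where Feature Extraction, the scanner software, marked the Cy3 signal well above background on at least 2 of the 6 arrays. This left 2208 members: 218, 508 and 1482 in the order of the classes, against 29045 of all probes.

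The study measured RNA of mouse antral oocytes, those from follicles with a fluid-filled cavity, on 2-colour arrays. SN oocytes (surrounded nucleolus) have a ring of condensed chromatin around the nucleolus and NSN oocytes (not surrounded nucleolus) do not, and a fluorescent DNA dye told them apart. There were 2 SN pools of 50 oocytes, 2 NSN pools of 41 and 44 oocytes, and 2 pools of 10 cells labelled only as oocyte. Each pool's RNA went through 2 rounds of linear amplification and was labelled with Cy3, and a Cy5-labelled reference of cell line and embryonic stem cell RNA, labelled with the same kit and no stated second round, was on every array with no dye swap. The shared protocol speaks of animals 39 weeks old, both wild type and Mater tm/tm (mutant for a maternal gene), and does not say which pool came from which. Nothing states that the 2 pools of any group were taken from different animals, so each p-value measures only how far these pools varied, and that variation may be technical. The characteristics field lists the cell type of all 6 as embryonic stem cells and the stage as embryo, against their titles, and no gene names were paired with the probes, so the oocyte identity of the pools could not be checked against marker genes here. The oocyte arrays lay on slides 1 and 2 and the other 4 on slide 3. Between the oocyte group and the others, group, slide and pool size cannot be told apart, nor can fewer cells from less RNA per cell.

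In most mammalian mRNAs, AAUAAA, written AATAAA in DNA, lies a short distance before the point where the transcript is cut and its poly(A) tail is added. Linear amplification primes on that tail, and a second round starts from shortened copies, so it is known to favour sequence near the 3′ end. A growing oocyte stores many maternal mRNAs with short tails. The cytoplasmic polyadenylation element, a U-rich motif near the hexamer, takes part in shortening and later lengthening those tails. In a probe with the hexamer near its last base, the probe covers sequence upstream of the hexamer. In a probe with the hexamer near its first base, it covers sequence downstream, where a cut made soon after the hexamer would leave little for the probe to bind. The letters AATAAA also occur by chance in coding sequence, introns and elsewhere, and whether a given member marks a used signal was not known.

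The probes with the largest differences in each comparison, and 1 steady probe of each class, are shown here in a window of 30 bases around the hexamer, with the hexamer in capitals, so that its place and its neighbours can be seen. Z00036509-1, with a start at base 14, is from the first class. Z00035982-1, Z00026691-1, Z00035125-1 and Z00057348-1 are from the class at bases 19-37, and the rest from the class at bases 38-55.
Z00036509-1: catgagacctgtAATAAAatatgtaatggg
Z00035982-1: ggttcaagattaAATAAAgacaatgacact
Z00026691-1: ccgccatggtatAATAAAaatattcaaggc
Z00035125-1: aaagcttatggcAATAAAtctcctccaaca
Z00057348-1: attcagacaggaAATAAAgaggagttttta
Z00026997-1: acaaacaaattggctttgtagAATAAAggc
Z00027064-1: tgtgtatgcgttAATAAAaagaaggaactc
Z00024685-1: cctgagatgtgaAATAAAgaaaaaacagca
Z00029123-1: taaaagcttggaAATAAAatttctttccct
Z00074994-1: aaccacatggctattcactatAATAAAatc
Z00055687-1: attagtctggtcAATAAAgctgctgtacta
Z00051920-1: gcattgtagctcaagatAATAAAtggtcct
Z00070304-1: tccctggcaggaAATAAAgttttaagtcta

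The hexamer was not spread evenly over the probes. Each start base held a mean of 18.8 probes in the class at bases 1-18, 35.5 at bases 19-37 and 99.3 at bases 38-55. The rise lay within a short stretch: starts at bases 1-30 held a mean of 21.3 probes each, starts at bases 31-36 held 46.2, base 37 alone held 96 and the highest count was 118 at base 45. So the class at bases 19-37 mixed a sparse stretch with the beginning of a dense one, and 63.8% of all members lay in the class at bases 38-55.

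The same count for other hexamers differed by strand. TTTATT, the reverse complement, occurred exactly once in 1346 probes and was nearly even, with means of 22.3, 23.6 and 27.6 probes per start in the 3 position classes. ATTAAA, the most common variant of the signal, occurred once in 1311 probes and rose as AATAAA did, with means of 13.7, 18.0 and 40.1. Its reverse complement TTTAAT, in 954 probes, had 15.2, 16.3 and 20.6. Both signal hexamers were thus denser toward the end of the probe as written, and neither reverse complement rose to the same extent.

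Members differed from the other probes in base composition, but the 3 classes hardly differed among themselves. The median G+C count was 23 of 60 bases in each class and 27 in probes without the hexamer. In the 20 bases before the hexamer T made up 31.1% in the class at bases 38-55. In the 20 bases after it T made up 27.5% in the class at bases 1-18, against 27.9% over whole probes. The class at bases 19-37, read on both sides, had 29.6% T before the hexamer and 29.1% after it. A reading frame with no stop codon through the probe as written was found in 75.2% of the class at bases 1-18, 66.2% at bases 19-37 and 67.3% at bases 38-55. Probes without the hexamer had one in 84.7%, and probes that were not members and held TTTATT once in 82.5%, 82.5% and 81.4% by class. An open frame does not show that a probe is coding, and AATAAA itself closes 1 of the 3 frames.

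The later the hexamer lay in the probe, the more often the probe was detected, in the oocyte RNA and in the reference alike. In the class at bases 1-18, Cy3 was well above background in 54.0% and 48.4% of the probes for oocyte, 65.5% and 61.1% for SN and 60.2% on each NSN array. At bases 38-55 the shares were 71.9% and 68.0% (oocyte), 83.3% and 80.6% (SN) and 79.5% and 81.3% (NSN). The class between them lay between on every array, with 64.7% and 59.6%, 75.5% and 72.1%, and 70.9% and 74.5%. In Cy5 the shares rose in the same order, from 61.1% to 64.9% over the 6 arrays at bases 1-18, through 70.3% to 73.7%, to between 78.3% and 81.4% at bases 38-55, so the order of detection was also that of the reference. The TTTATT probes showed a smaller rise, from 47.5% to 58.4% on oocyte array 1 and from 61.0% to 70.7% on SN array 1. Probes well above background on none of the 6 arrays made up 27.4%, 19.7% and 12.9% of the 3 classes.

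Probes seen on all 4 SN and NSN arrays and on neither oocyte array were no more frequent among members than elsewhere. They made up 6.49%, 5.49% and 5.99% of the classes, 166 members in all, against 6.38% of all probes. The reverse, both oocyte arrays and none of the others, held for 4 members (0.143%), against 98 of all probes (0.233%).

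The median Cy3 over Cy5 ratio of each class was taken on each array after background correction and loess normalisation, on the log2 scale, where a higher value means more oocyte RNA relative to the reference. In the class at bases 38-55 the oocyte arrays gave -0.02 and 0.01, the SN arrays 0.59 and 0.55, and the NSN arrays 0.44 and 0.49. The 3 groups did not overlap: SN was highest, NSN next and oocyte lowest. In the class at bases 19-37 it was 0.02 and 0.01 in oocyte, 0.47 and 0.44 in SN and 0.39 and 0.40 in NSN, in the same order and again without overlap. In the class at bases 1-18 it was 0.24 and 0.14 in oocyte, 0.29 and 0.41 in SN and 0.34 on both NSN arrays, so the SN values spanned those of NSN and lay closer to oocyte. Over all 29045 probes tested the medians were 0.06 and 0.04, 0.18 and 0.18, and 0.17 and 0.16.

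The order of the classes was therefore not the same in the groups. The median of the class at bases 38-55 minus that at bases 1-18 was -0.27 and -0.13 on the oocyte arrays, a mean of -0.20 ± 0.0959 (SD, n = 2). It was 0.30 and 0.14 on the SN arrays, 0.22 ± 0.112 (SD, n = 2), and 0.10 and 0.15 on the NSN arrays, 0.13 ± 0.0366 (SD, n = 2). The late class was below the early class on both oocyte arrays and above it on the other 4. From oocyte to SN this gap moved by 0.42 and from oocyte to NSN by 0.33, both more than the spread between the arrays of a group. From SN to NSN it moved by -0.09, which is within that spread. No p-value is given for these movements, which are scores over members chosen with earlier results known.

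Both the sign of the gap on a single array and the size of its movement between groups rested on which probes were kept. Among the 150, 389 and 1182 members above background on all 6 arrays, the gap was -0.67 and -0.49 in oocyte, 0.13 and -0.07 in SN and -0.03 and -0.04 in NSN, and it moved by 0.61 and 0.55 from oocyte to SN and NSN. Without any filter it moved by 0.18 and 0.14. In the authors' processed table it moved by 0.21 for SN and, in the other direction, by -0.14 for NSN. That table follows Cy3 alone, and its low values were raised to a floor here.

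The movement for the reverse complements was smaller than for the signal hexamers under the same filter, a difference that was not tested. For TTTATT probes the gap was -0.07 and 0.02 in oocyte, -0.04 and 0.01 in SN, and 0.04 and 0.06 in NSN, a movement of 0.01 and 0.08 against oocyte. For ATTAAA it was -0.20 and -0.24, then 0.19 and 0.16, then 0.03 and 0.19, a movement of 0.39 and 0.33. For TTTAAT the movements were 0.10 and 0.18. On probes above background on all 6 arrays the movements for TTTATT were 0.19 and 0.23, about as large as those of AATAAA without a filter, for TTTAAT 0.06 and 0.15, and for ATTAAA 0.66 and 0.53.

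The channels were also read alone, after normexp and scaled to the 75th percentile of each array. From oocyte to SN the Cy5 class medians moved by -0.15, -0.04 and -0.02 in the order of the classes, against 0.01 over all probes tested. The Cy3 class medians moved by -0.11, 0.67 and 1.04, against -0.52. The median of the probe differences in Cy3 was below 0 in every class, at -1.22, -0.34 and -0.17, against -1.19 over all probes tested, so the sign for the later classes turned with the measure while they stayed above all probes in both. In the Cy3 intensity as processed by the scanner software, the medians of the probe differences were -0.32, 0.47 and 0.51, against -0.33. The SN and NSN arrays also had more Cy3 signal in all, a mean of 4719 to 5361 per probe spot against 1417 and 2110 on the oocyte arrays, and its part in these values was not tested.

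Probe by probe, members were shifted toward higher values in SN than in oocyte, and the shift came with the hexamer's position. The median of the differences of single probes is another quantity than the difference of class medians above. For SN minus oocyte it was -0.05 at bases 1-18, 0.27 at bases 19-37 and 0.36 at bases 38-55, against -0.09 over all probes tested. For the class at bases 1-18 its sign thus differed from that of the class medians, which moved by 0.16. For NSN minus oocyte it was -0.09, 0.21 and 0.20, against -0.11. Spread within a class was far wider than these shifts: for SN minus oocyte the lower and upper quartiles at bases 38-55 were -0.45 and 1.46.

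limma, with Benjamini-Hochberg adjustment over all 29045 probes and an adjusted p under 0.05 for a call, found 922 members higher and 546 lower in SN than in oocyte. Of all probes tested 26.3% were called higher and 35.3% lower in that comparison. In the class at bases 38-55, 649 probes (43.8%) were higher and 332 (22.4%) lower, so the balance was the reverse of that over all probes. At bases 19-37 it was 207 (40.7%) higher and 135 (26.6%) lower. At bases 1-18 it was 66 (30.3%) higher and 79 (36.2%) lower, close to the background in both directions. The reversed balance was not particular to AATAAA. Of probes that were not members and held ATTAAA once, at bases 38-55, 44.1% were higher and 22.7% lower. At the same bases TTTAAT gave 35.0% and 30.9%, and TTTATT 25.1% and 34.6%. At bases 1-18 ATTAAA gave 21.7% and 46.5%, TTTAAT 26.1% and 41.0%, and TTTATT 24.4% and 40.4%.

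NSN against oocyte shares the oocyte arrays with that comparison. Here limma called 799 members higher and 575 lower, where 25.4% of all probes tested were called higher and 35.3% lower. Of the 218, 508 and 1482 tested by class, 59, 188 and 552 were higher and 78, 138 and 359 lower; for the class at bases 38-55 this is 37.2% and 24.2%, and for that at bases 1-18 27.1% and 35.8%.

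The filter could favour probes high in SN and NSN, since a member lost on the oocyte arrays could pass through the other 4. On the 1721 members above background on all 6 arrays, the shares higher and lower in SN than in oocyte were 28.0% and 44.0% at bases 1-18 and 42.4% and 30.1% at bases 19-37. At bases 38-55 521 of 1182 were higher (44.1%) and 307 lower. Over all 20457 probes of that kind they were 26.5% and 42.9%. The early class thus stayed near the background and the other classes away from it. With median centring in place of loess, 1419 members (64.3%) were higher and 61 (2.76%) lower in SN, where 45.3% and 8.43% of all probes were. In NSN it was 1289 (58.4%) and 81 (3.67%), against 40.5% and 8.84%. That scaling moved the median difference over all probes from -0.09 to 0.45 in SN and from -0.11 to 0.31 in NSN, and relative to it the 3 classes stood at 0.00, 0.80 and 0.98 in SN and at -0.03, 0.65 and 0.80 in NSN. Over 18 settings the median of the probe differences, SN minus oocyte, was also taken relative to all probes. It ranged from -0.07 to 0.14 at bases 1-18, from 0.09 to 0.81 at bases 19-37 and from 0.16 to 0.98 at bases 38-55.

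In finer steps, by the median of the probe differences, the change came over a short stretch near base 20 rather than as a slope. In bins of 5 start bases, from the first base to the last, the SN minus oocyte median of probe differences was 0.01, -0.11, -0.14 and -0.06 in the first 4 bins, up to base 20. It was 0.33, 0.39 and 0.37 in the next 3, up to base 35, and 0.28, 0.41, 0.30 and 0.34 in the last 4. The difference of bin medians was 0.31, 0.11, 0.14 and 0.20 in the first 4 bins. In the next 3 it was 0.39, 0.57 and 0.51, and in the last 4 it was 0.49, 0.60, 0.63 and 0.54. By that measure the rise was more gradual, and the first bin lay above the next 3. The 11 bins held from 53 to 468 tested probes. Over all 2208 probes the rank correlation of start base and difference was only 0.0611 for SN and 0.0427 for NSN. The probes share the same 6 arrays and some overlap in sequence, and these values are descriptions.

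The classes were also read at matched base composition. Within 6 bands of G+C count, the SN minus oocyte difference of class medians at bases 38-55 was 0.35, 0.59, 0.60, 0.56, 0.57 and 0.44 from the lowest band to the highest. For probes without the hexamer it was 0.37, 0.39, 0.28, 0.17, 0.08 and 0.01. The late class lay above the others in every band but the lowest, up to 17 G+C bases, which is not so for the early class. That class had 0.37, -0.27, -0.28, 0.27, 0.30 and -0.06, with only 11 and 15 probes in the lowest and the highest band. By the median of the probe differences the early class was above the late class in the band of 24 to 26 G+C bases, at 0.51 against 0.37, so the order by position was not that of every band.

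Members at bases 38-55 were also brighter in the reference: 42.2% of them lay in the brightest of 4 equal bands of the mean Cy5 level over all probes tested, against 21.1% at bases 1-18. Within that band the median of the probe differences, SN minus oocyte, was 0.64 at bases 38-55, 0.70 at bases 19-37, -0.84 at bases 1-18 and -0.22 for probes without the hexamer. In the third band the values were -0.04, -0.31, -0.85 and -0.85 in the same order, and in the second 0.20, 0.22, -0.27 and -0.25. In the dimmest band the values were 0.47, 0.41 and 0.33, and for the probes without the hexamer 0.17. By this measure both later classes lay above the probes without the hexamer in every band. By the difference of class medians they did so too, with 1.03 and 1.18 in the brightest band, where the probes without the hexamer had 0.32. The place of the early class turned with the measure: its class median moved by 0.64 in the brightest band and by 0.53 in the second, where the probes without the hexamer had 0.24.

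The called members with the largest differences, 2 in each direction, showed what the extremes of the later classes looked like. Z00026997-1, with the hexamer at base 52, had log2 ratios of -0.34 and -0.17 in oocyte, 7.37 and 7.20 in SN, and 7.02 and 6.83 in NSN. It was well above background on all 4 SN and NSN arrays and not on the oocyte arrays, so only a bound on its difference exists, and the value depended on the setting (6.91 to 11.97 for SN minus oocyte). Z00027064-1, with the hexamer at base 42 and measured on every array, had -7.49 and -6.98 in oocyte, 0.12 and -0.08 in SN, and -0.76 and -0.99 in NSN, a difference of 7.26 ± 0.21 (SE) for SN with limma's adjusted p of 1.57e-05. Its range over the settings was 4.12 to 8.91.

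The probe with the second largest rise in NSN was Z00024685-1, with the hexamer at base 41. It had 2.35 and 1.24 in oocyte, 7.86 and 7.92 in SN, and 8.23 and 8.37 in NSN, a difference of 6.50 ± 0.35 (SE) for NSN with limma's adjusted p of 4.08e-05. Its reference signal was above background on only 2 arrays, so the level of its ratio rests on a dim channel.

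The largest falls in SN belonged to members of the class at bases 19-37. Z00035982-1, with the hexamer at base 25, had 4.34 and 3.68 in oocyte, 0.27 and -0.18 in SN, and -0.22 on both NSN arrays. It fell by 3.96 ± 0.26 (SE) in SN and by 4.23 ± 0.26 (SE) in NSN, with limma's adjusted p of 6.77e-05 and 6.23e-05. Z00026691-1, with the hexamer at base 19, had 2.29 and 2.20 in oocyte, -1.51 and -1.39 in SN, and -1.46 and -0.92 in NSN, and fell by 3.70 ± 0.20 (SE) in SN (limma's adjusted p = 3.82e-05). In NSN the second largest fall was that of Z00029123-1, at base 41, by 3.58 ± 0.53 (SE) with limma's adjusted p of 0.00159. Its 2 oocyte arrays read 6.53 and 5.03, and its reference was above background on none of the 6.

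Other members hardly moved, 1 chosen from each class for that. Z00036509-1, at base 14, had 1.24 and 1.32 in oocyte, 1.34 and 1.20 in SN, and 1.34 and 1.21 in NSN. Z00035125-1, at base 24, ran from 0.13 to 0.35 over the 6 arrays, and Z00070304-1, at base 41, from 0.38 to 0.60. In all 3 the groups overlapped, and the 95% intervals of the SN minus oocyte difference were -0.35 to 0.32, -0.30 to 0.40 and -0.35 to 0.36. These values did not stay near 0 under every setting: the difference reached 1.66 for the first, -0.76 for the second and 1.89 for the third.

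Between NSN and SN, limma called 0 of the 2208 members at an adjusted p under 0.05, as it did over all probes (0.0%), with a smallest adjusted p of 0.113. At an unadjusted p under 0.05 there were 323 members, 60 higher in NSN and 263 lower. Over all probes tested 4.49% were higher and 6.32% lower by that rule, against 2.72% and 11.9% of the members. The share lower was 5.96% at bases 1-18, 10.0% at bases 19-37 and 13.4% at bases 38-55, so the early class was at the background and the late class above it. Among probes that were not members, those with TTTATT gave 5.33%, 5.34% and 5.67%, and those with ATTAAA 5.10%, 11.0% and 10.5%. Those with TTTAAT gave 9.94%, 6.78% and 8.52%, above the share over all probes in each class and highest in the early one. Median centring called 15 members (0.679%), all lower in NSN, against 108 of all probes (0.372%), all lower too. A fit of all 6 arrays called 16 members (0.725%), all lower, against 87 lower (0.3%) and 2 higher of all probes.

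The shift itself was small. The median of the probe differences, NSN minus SN, was 0.04, -0.03 and -0.08 in the order of the classes, against 0.03 over all probes tested. In the brightest band of Cy5 level it was -0.06, -0.16 and -0.18, against -0.06 for probes without the hexamer. In the other bands, dimmest first, the late class had -0.01, 0.05 and -0.04. The probes without the hexamer had 0.03, 0.11 and 0.09 there. The part of Cy5 level in the shares lower in NSN was not tested. The SN and NSN arrays did not overlap for 46.9% of the 2208 members tested, near the 44.3% over all 29045 probes tested. Of the 2208 members, 99 were lower and 5 higher in NSN with arrays that did not overlap and at least 2-fold apart. By class these were 4 and 0 of the 218 at bases 1-18, 13 and 0 of the 508 at bases 19-37, and 82 and 5 of the 1482 at bases 38-55. Over all 29045 probes tested the numbers were 671 and 63. Z00051920-1, with the hexamer at base 48, read -0.47 and -0.54 on the oocyte arrays, on which its Cy3 did not rise above background, 2.46 and 2.50 in SN, and -0.08 and 0.08 in NSN. Its difference, NSN minus SN, was -2.48 ± 0.13 (SE) with limma's adjusted p of 0.113, which does not pass. Z00057348-1, with the hexamer at base 31, had a difference of -3.03 ± 0.15 (SE), also with an adjusted p of 0.113 from limma, and its reference was above background on no array. In the other direction Z00074994-1, at base 52, had 0.35 and 0.19 in SN and 1.22 and 1.24 in NSN, a difference of 0.96 ± 0.13 (SE) with limma's adjusted p of 0.168. Z00055687-1, at base 40, had 1.61 and 1.60 in SN and 2.49 and 2.43 in NSN, a difference of 0.85 ± 0.12 (SE) that did not pass either (limma's adjusted p = 0.175).

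Probes with a cytoplasmic polyadenylation element did not share the shift of the late class, and their calls lay nearer to the shares over all probes. TTTTAT or TTTTAAT lay before the hexamer, on the same strand and not overlapping it, in 79 of the 1787 probes at bases 38-55 (4.42%); the motifs occurred anywhere in 4.14% of all probes. The 60 that were tested had medians of 0.79 and 0.76 in oocyte, 0.54 and 0.51 in SN, and 0.35 and 0.38 in NSN. Oocyte was highest and NSN lowest, without overlap, whereas the 1422 tested probes of the class without the motif had -0.05 and -0.01, 0.59 and 0.56, and 0.44 and 0.50. The median of the probe differences, SN minus oocyte, was -0.40 with the motif and 0.37 without it, and for NSN -0.25 and 0.22. Of the 60, limma called 13 (21.7%) higher and 25 (41.7%) lower in SN than in oocyte, against 26.3% and 35.3% of all probes tested. In NSN it called 9 (15.0%) higher and 24 (40.0%) lower, against 25.4% and 35.3%. Without the motif the late class had 636 higher and 307 lower in SN, and 543 and 335 in NSN. No difference between probes with and without the motif was tested. Its 6 or 7 letters are T-rich, and the 20 bases before the hexamer in this class held 31.1% T, against 27.9% over whole probes.

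Other features of the late class came with larger or smaller medians of the probe differences. The Pumilio element TGTANATA, in 0.971% of all probes, occurred in 43 of its probes, of which 39 were tested. Their medians were -0.79 and -0.63 in oocyte, -0.31 and -0.25 in SN, and -0.64 and -0.20 in NSN, and the SN minus oocyte median of 0.54 was in the direction of the class. The AU-rich pentamer ATTTA was in 8.25% of all members and 7.25% of all probes. With it the late class had medians of 0.27 in SN and 0.07 in NSN against oocyte, and without it 0.37 and 0.21. The 41 tested late probes that also held TTTATT had 0.08 and -0.21, against 0.36 and 0.21 for the rest of the class. The 39 that also held ATTAAA had 0.24 and -0.09, against 0.36 and 0.20. The 12 in which TTTTAAT overlapped the hexamer had -0.17 and -0.30, against 0.36 and 0.20. Probes with 8 or more A in their last 10 bases numbered 59 at bases 38-55, 15 at bases 19-37 and 0 at bases 1-18; the 52 tested in the late class had a median of 0.47. All these motifs were searched on the strand as written. The open reading frame made little difference to the late class, with medians of 0.35 for probes with one and 0.36 without.

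Members are not independent, and some read the same sequence. There were 70 pairs whose probes shared at least 20 bases, with 127 members in 60 sets, and 1 pair had the same 60 bases. In the 56 tested pairs in which the hexamer was shifted, the log2 ratios of the partners lay a median of 0.135 to 0.21 apart on the 6 arrays, and their SN minus oocyte differences 0.19 apart. Many of these pairs were shifted by only a few bases, and those with larger shifts varied. Z00017682-1 and Z00051536-1, shifted by 18 bases, had gaps of 1.38 to 2.61 over the arrays. For Z00057703-1 and Z00030340-1, shifted by 27, the gaps were -0.13 to 0.02. Of these tested pairs, the 3 with the largest shift have 1 probe in common. They are shown with the hexamer in capitals, since one short sequence places it at base 14 of the first probe and at bases 54, 51 and 46 of the others, and so in different classes.
Z00077344-1: gaccaagctggaAATAAAacgggctgatgc
Z00077275-1: ttcggaggggggaccaagctggaAATAAAa
Z00077427-1: ggaggggggaccaagctggaAATAAAacgg
Z00077351-1: ggggaccaagctggaAATAAAacgggctga

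The common probe, Z00077344-1, had -5.75 and -5.26 in oocyte, -6.82 and -6.87 in SN, and -6.91 and -6.99 in NSN. Its partner with the largest shift, 40 bases, was Z00077275-1, with -1.89 and -1.80, then -3.78 and -3.72, then -3.39 and -3.46. The ratio of the partner was higher on every array, by 3.04 to 3.85, while both fell from oocyte to the other groups: by 1.34 and 1.90 in SN (limma's adjusted p = 0.00124 and 7.61e-05). Z00077427-1 and Z00077351-1, shifted by 37 and 32 bases, fell by 1.80 and 1.63 in SN. These probes share only 20, 23 and 28 bases with the common one, and whether they bind the same transcripts was not known; all 4 had more signal in the reference than in any oocyte pool. The fall of the common probe was not kept under every setting: its SN minus oocyte difference ranged from -1.58 to 0.26.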

How the data were processed

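The authors' scanner files, per the file headers, were made with Agilent Feature Extraction 9.5.1.1 and hold the intensity of each spot in both channels, a processed intensity and a log10 ratio of Cy5 over Cy3, whose sign was turned here. The deposited value table holds 25030 probes on a log10 scale, since its values followed log10 Cy3 with r between 0.9938 and 0.9977. The table's centring and its choice of probes stay unknown. It was read as Cy3 alone, not as a ratio. Its values below 2, 36.5% to 41.3% per array, were set to 2 here. From the deposited intensity, log2 ratios of Cy3 over Cy5 were made with normexp (offset 50) and loess in limma 3.58.1 (R 4.3.3), with control spots at weight 0 and spots of one probe averaged. Where an array had 2 scans, the brighter was used. Against oocyte all 6 arrays were fitted, and NSN against SN the 4 arrays of slide 3. The fits were also run on simulated independent values with known changes added. Those values held no array, slide or detection effects, so they cannot show how such effects bear on the calls. No spot was saturated; the number of arrays limits the precision. Well above background in Cy3 were 22010 to 29780 probes per array.

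Members, motifs and position classes were chosen with earlier results of these data known; open frames and the bands of Cy5 level were added after the values were seen. Named probes were the 2 largest differences each way per comparison, among called members (where none was called, those with the smallest p) whose arrays did not overlap and which were above background on each array of the higher group, 1 steady member per class and the 3 tested overlapping pairs with the largest shift. Replicate numbers are shared by all groups but mark no litter, batch or day in the labels. Probe identifiers were not paired with genes and no genome was used, so gene names, positions and cell type markers are not given. Alternatives were other offsets, normalisations, filters, scans, blocks and fits, and leaving out each array.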

Additional observations from a re-analysis of the deposited data

Results flagged for a closer look

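The gap between the class with the hexamer at bases 38-55 and that at bases 1-18 had opposite signs in different groups. It was below 0 on both oocyte arrays and above 0 on both SN arrays, a movement of 0.42 on the log2 scale. It was also above 0 on both NSN arrays, a movement of 0.33. Both movements share the oocyte arrays, and neither difference was tested. With only probes above background on all 6 arrays, 1 SN array and both NSN arrays were below 0 as well (-0.07, -0.03 and -0.04), so the split in sign did not hold there, while the movements were 0.61 and 0.55.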

How the results depend on the processing

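Members called against oocyte stayed within 1.5 times the 1468 (SN) and 1374 (NSN) reported in all 17 alternatives each, from 1028 to 1493 and from 993 to 1420, with the lowest counts in the authors' table, which holds fewer members. The reported counts are 66.5% (SN) and 62.2% (NSN) of the members tested, near the 61.7% and 60.7% called over all probes tested. Leaving out 1 array gave 1278 to 1455 and 1213 to 1359, and 0 for NSN against SN. The share of called members that was higher was 62.8% (SN) and 58.2% (NSN), and 95.9% and 94.1% with median centring; over all probes it was 42.7% and 41.9%, and 84.3% and 82.1%. NSN against SN, median centring called 15 members and all 6 arrays in one fit 16, against 0. The movement of the gap between late and early class, 0.42 for SN and 0.33 for NSN against oocyte, was 0.61 and 0.49 with offset 16, 0.76 and 0.60 for the ratio as deposited, 1.07 and 0.90 after median centring, 0.61 and 0.55 with Cy3 above background on all 6 arrays, 0.64 and 0.53 with both channels above it, and 0.94 and 0.84 with the Cy5 level in the middle 2 of 4 equal bands (chosen after seeing the data). It was lower, at 0.18 and 0.14, without a filter. For NSN it was 0.25 with the processed Cy3 intensity alone, 0.25 without ATTAAA in the probe and 0.47 with a G+C count of 18 to 26. In the authors' table, which follows Cy3 alone and was floored here, it was 0.21 for SN and -0.14 for NSN, a reversal. The medians of probe differences there were 0.00 and 0.50 for the early and late class in SN, and -0.09 and 0.33 in NSN. With 1 array left out the movement was 0.34 to 0.50 (SN) and 0.26 to 0.39 (NSN). From SN to NSN the gap moved by -0.09, by -0.18 with median centring, by -0.20 with processed Cy3 alone and by -0.36 in the authors' table; with 1 array left out it ranged from -0.17 (without SN replicate 2) to -0.01 (without SN replicate 1). The cause of these shifts was not tested. With the replicate number as a block, 1480, 1399 and 0 members were called and the gap moved by 0.42, 0.33 and -0.09, which a block cannot change in a balanced design. Deviations of same-numbered arrays correlated with -0.0225 (SN and oocyte), 0.149 (NSN and oocyte) and 0.207 (NSN and SN). With 2 arrays a group these values cannot tell whether same-numbered arrays share more than a number. With slide as a random block 1434 and 1353 were called. Of the 2800 members, 2208 passed the filter, and the main differences cover only these. The 456 members above background on no array entered differences only in the setting without a filter.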
